A study of Mus musculus with 10 samples.

Results

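Iron storage, transport and haem breakdown were followed through 10 genes: the ferritin chains Fth1 and Ftl1, the transferrin receptor Tfrc, the iron exporter Slc40a1, the phagosomal metal transporter Slc11a1, the haem oxygenase Hmox1, the metalloreductases Steap3 and Steap4, the ferroxidase Cp and the regulator Hfe. They were chosen by name, with earlier results of these data known, and all 10 were found among the 55414 gene identifiers measured. Polyadenylated RNA was sequenced from sorted mouse macrophages that had taken up apoptotic cells (Eff+) or had not (Eff-). The wound groups were 3 Eff+ and 3 Eff- libraries from skin wounds collected 3 days after wounding, and all 6 came from LysMCreER/mTmG mice given tamoxifen for 6 days, so the controls carried the same alleles and drug. The culture groups were 2 Eff+ and 2 Eff- libraries of wild-type bone marrow cells grown in GM-CSF for 7 days, and all 4 are labelled as exposed to apoptotic fibroblasts, for 12 h. The sources used here do not state the animals' age. The deposited column names of the culture Eff- libraries contain the letters NOAC, whose meaning the labels do not explain. Whether those cells were offered apoptotic fibroblasts and took up none, as the labels read, or were never offered any is therefore not settled, and in the second case every culture comparison, and the comparison of models, would set exposed against unexposed cells.

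Both models have limits that come with their construction. LysMCreER acts in cells that use the lysozyme M gene, which neutrophils use as well as macrophages, and GM-CSF cultures of bone marrow are known to hold dendritic-like cells beside macrophages. The labels do not say that the libraries of a group came from separate animals or cultures, so the p-values below measure the spread between these libraries, which may be technical.

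Macrophages recycle most of the iron that a mammal uses. They engulf dying cells, break haem down with haem oxygenase to release its iron, carry the iron out of the phagosome, and then either store it in ferritin or send it out of the cell through ferroportin. Much of this control acts on messenger RNA without changing its amount by transcription: when iron is scarce, the iron regulatory proteins IRP1 (gene Aco1) and IRP2 (gene Ireb2) bind a hairpin, the iron-responsive element, which blocks translation when it lies in the 5′ UTR and protects the messenger from decay when it lies in the 3′ UTR.

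The hairpins are shown because a search for their pattern divides the 10 genes into those whose messenger holds such letters and those in which none were found. The pattern searched, on the transcript strand only, was C, any 5 bases, the loop CAGTGN, and 5 bases that pair with the first 5, with G-T pairs allowed. It was found in 4 of the 10 genes, 7 times in all, and in 294 of the 21877 protein-coding genes of the GENCODE vM21 transcripts, which is 1.34%. Each sequence is written 5′ to 3′ with the 6 loop bases in capitals. The capitals mark the loop, whose last base may be any, and the lower-case letters hold the unpaired C, the arms of the stem and the bases beyond them.
Fth1 (transcript Fth1-201, 5′ UTR, bases 87 to 116): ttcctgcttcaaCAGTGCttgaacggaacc
Ftl1 (transcript Ftl1-201, 5′ UTR, bases 78 to 107): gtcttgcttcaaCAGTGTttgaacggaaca
Slc40a1 (transcript Slc40a1-201, 5′ UTR, bases 90 to 119): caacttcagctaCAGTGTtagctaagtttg
Tfrc hairpin 1 (transcript Tfrc-201, 3′ UTR, bases 3315 to 3344): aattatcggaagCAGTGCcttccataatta
Tfrc hairpin 2 (3′ UTR, bases 3694 to 3723): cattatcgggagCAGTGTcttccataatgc
Tfrc hairpin 3 (3′ UTR, bases 3759 to 3788): ctatatcggagaCAGTGAtctccatatgtt
Tfrc hairpin 4 (3′ UTR, bases 3806 to 3835): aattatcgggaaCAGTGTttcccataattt

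The ferritin chains and ferroportin each held 1 pattern ahead of the coding sequence, and the transferrin receptor held 4 behind it. The other 6 genes held none in these transcripts. A match is a description of letters, and binding of the regulatory proteins was not measured. A pattern this strict can miss elements with another loop or an unpaired base in the stem. The RNA levels below do not report translation, which is the step that the 5′ patterns are known to control.

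Total counts were 39735437 to 57308823 in the wound libraries and 17622740 to 27261880 in the culture libraries. All 8 macrophage markers had counts in every library, summing to 2.12% to 2.59% of counts in wound Eff+ and 1.73% to 1.81% in wound Eff-, a sum carried by Cd14. They did not move as 1 list: Cd14 (log2 fold change 1.10) and Ptprc (1.01) rose in wound Eff+ cells, Adgre1 fell (log2 fold change -0.85, SE 0.20, adjusted p = 0.0385), and Csf1r, Cd68, Fcgr1 and Mertk lay lower in every wound Eff+ library than in any wound Eff- library without passing the test. Itgam overlapped between the wound groups. Neutrophil markers summed to 1.75% to 1.95% of counts in wound Eff+ and 0.292% to 0.503% in wound Eff-, and only Camp, in 1 wound Eff- library, was at 0 among the 10. Each of the 10 lay higher in every wound Eff+ library than in any wound Eff- library. The test called 8 of them higher, against 7.39% of all genes tested. The sums of keratinocyte markers (0.000444% to 0.00186% of counts in wound Eff+ and 4.99e-05% to 0.000141% in wound Eff-, where Krt14, Krt5 and Krt1 were at 0) and of dendritic cell markers (0.00184% to 0.00197% in wound Eff+ and 0.00259% to 0.00544% in wound Eff-) were separate too. Gene by gene, 2 of the 4 keratinocyte markers lay higher in wound Eff+ and 2 overlapped. Of the 5 dendritic cell markers, 1 lay lower in wound Eff+ and 4 overlapped, and none passed the test. Culture Eff- library 1 stood apart from culture Eff- library 2: 44836 genes had at least 1 count in it against 18171, its Cd68 count was 10313 against 40213, and its dendritic cell markers took 0.0235% of counts against 0.00407%. Culture Eff+ library 1 also had more genes with a count than culture Eff+ library 2, 35649 against 19649, so part of this split follows the library number in both culture groups. In culture Eff+ the dendritic cell markers took 0.002% and 0.000323% of counts, and the fibroblast markers, of the kind of cell that was fed, took 0.000437% and 0.0139% in culture Eff+ and 0.00123% and 0.00269% in culture Eff-. Fibroblast markers overlapped between the wound groups too, at 0.0583%, 0.113% and 0.217% in Eff+ and 0.0217%, 0.134% and 0.0663% in Eff-. The culture fold changes of the 9 iron genes tested there are therefore given with and without culture Eff- library 1. Culture Eff+ library 1 stayed in both, so leaving out the Eff- library does not remove what the libraries numbered 1 share.

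Across the wound libraries, 2 of the 10 iron genes passed the test, Steap4 and Slc40a1, and both were higher in Eff+ cells. Among all 14908 genes tested there, 11.2% passed, 7.39% as higher and 3.79% as lower, so the members' count lies near that background. The test was edgeR's quasi-likelihood test with Benjamini-Hochberg adjustment over all genes tested and a threshold of 0.05. The ranges of the 3 Eff+ and 3 Eff- libraries did not overlap for 6 of the 10 genes, against 36.8% of all genes tested: Fth1, Tfrc, Slc40a1, Slc11a1 and Steap4 lay higher in Eff+ and Steap3 lower. These ranges, and the 36.8%, are of scaled counts. As shares of all counts, Fth1, Tfrc and Slc11a1 overlapped, and Ftl1 and Hfe lay lower in Eff+. Slc40a1, Steap4 and Steap3 stayed separate in the same directions. The median log2 fold change of the 10 genes was 0.349, beside -0.027 over all genes tested. The count was 5 with DESeq2, all higher, where 23.9% of all genes tested passed. It was 4 with scaling by library totals only, 2 higher and 2 lower, where 22.6% of all genes passed, 714 higher and 2654 lower, and the median of all genes stood at -0.416. Without wound Eff+ library 2 the count was 0, as it was over all genes, and it was 1 without wound Eff- library 1, 2 or 3.

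**Figure D1:**
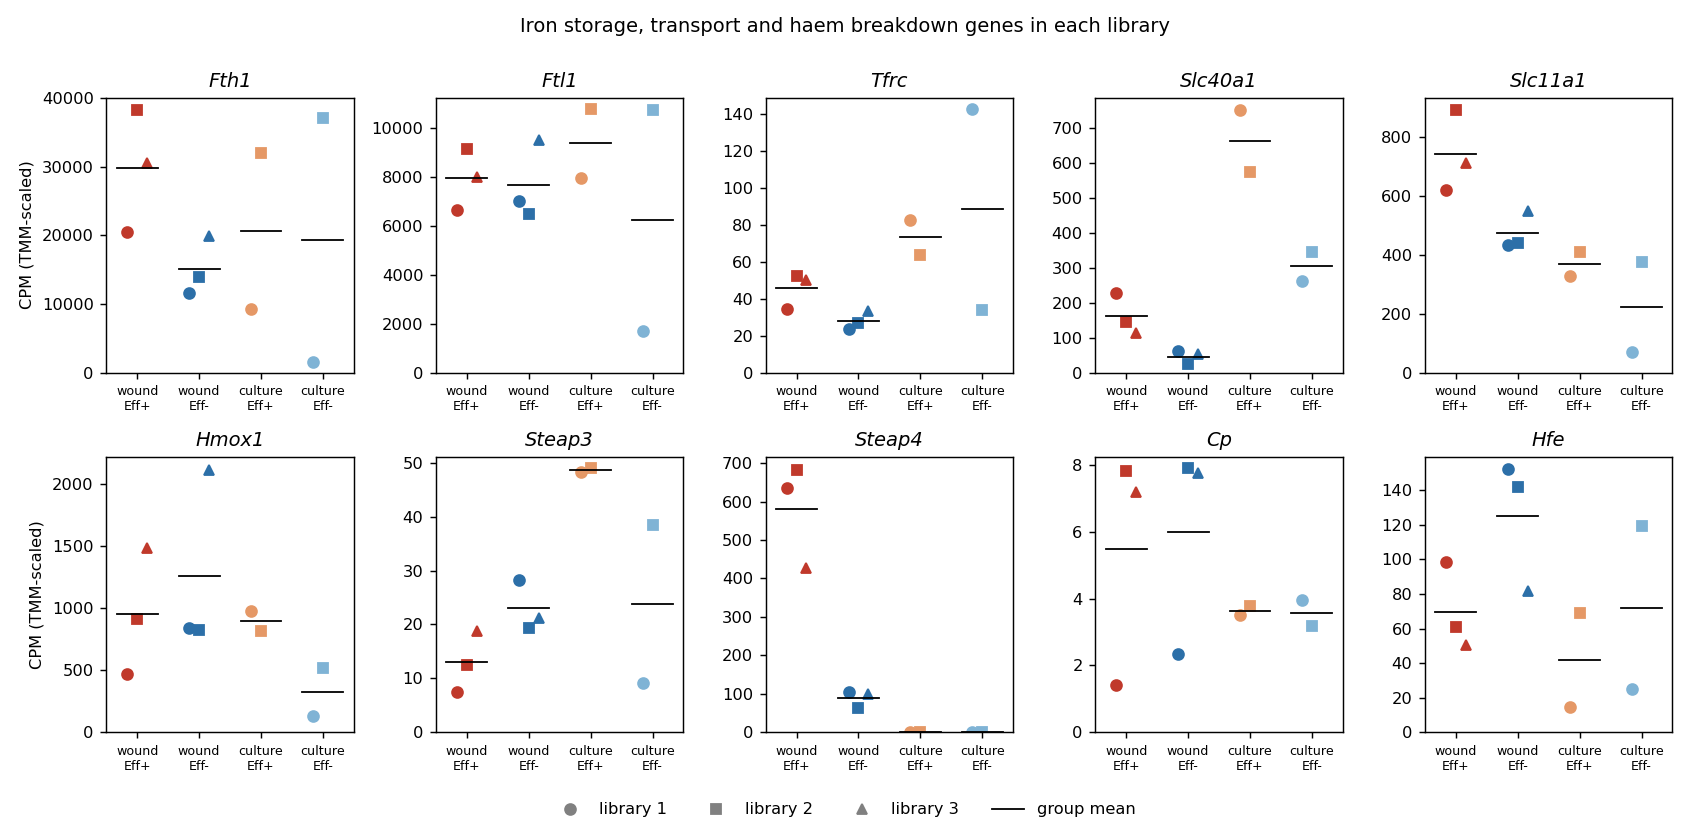
Level of the 10 iron genes in CPM, counts scaled to a common library total with TMM factors within each model; each point is a library, its shape gives the library number and the bar is the group mean. Steap4 lies at 428 to 682 CPM in wound Eff+ cells, 61.9 to 105 CPM in wound Eff- cells and at 0 to 0.494 CPM in culture.

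Storage comes first, since ferritin is where engulfed iron is kept. Fth1 (ENSMUSG00000024661, GRCm39 chromosome 19, 9957962 to 9962462, plus strand) encodes the heavy chain, which carries the ferroxidase activity. Levels are given in CPM, counts scaled to a common library total within each model. Fth1 had 20475, 38197 and 30489 CPM in wound Eff+ libraries and 11623, 13860 and 19939 CPM in wound Eff- libraries. The groups did not overlap, although the lowest Eff+ value and the highest Eff- value were close. As shares of all counts they overlapped, with the lowest Eff+ library at 1.82% and the highest Eff- library at 2.19%. With a log2 fold change of 0.97 (SE 0.31, adjusted p = 0.0822) Fth1 did not pass the threshold. DESeq2 gave an adjusted p of 0.00713 for it, and edgeR with a block for the replicate number 0.0322. It did not pass with limma-voom (adjusted p = 0.0614) or in edgeR with library totals only (log2 fold change 0.58, adjusted p = 0.151).

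Ftl1 (ENSMUSG00000050708, chromosome 7, 45107368 to 45109308, minus strand) encodes the light chain, which helps the iron core form inside the ferritin shell. It had 6650, 9170 and 8014 CPM in wound Eff+ libraries and 7020, 6494 and 9505 CPM in wound Eff- libraries. The groups overlapped almost entirely. As shares of all counts they were separate, at 0.59% to 0.747% in Eff+ and 0.774% to 1.04% in Eff-. Ftl1 had a log2 fold change of 0.05 (SE 0.23, adjusted p = 0.912), which was -0.34 with scaling by library totals only. Ftl1 shares 355 exon bases with Gm10252 on the other strand, which had 3 to 54 counts. Processed copies of both chains lie elsewhere in the genome: the Ftl1 copies held 0.507% to 0.802% as many counts as Ftl1, the Fth1 copies at most 0.0688% as many as Fth1, and the split between gene and copies is uncertain.

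In CPM the groups were separate for Fth1 and not for Ftl1, and as shares of all counts the reverse held. The balance of the chains, which the scaling of libraries does not change, was compared within each library. It was taken as Fth1 counts over Ftl1 counts, each per base of annotated exon. This ratio was 1.19, 1.61 and 1.47 in wound Eff+ libraries and 0.640, 0.825 and 0.810 in wound Eff- libraries. The groups did not overlap, and every Eff+ library held more heavy than light chain messenger on this scale while every Eff- library held less. The mean log2 ratio was 0.91 higher in Eff+, 1.87-fold, with p = 0.1 in a two-sided exact permutation test, which is the smallest p that the 20 arrangements of 3 against 3 allow. With any 1 wound library left out the log2 difference stayed between 0.788 and 1.03. The ratio's level depends on the exon length used, since the annotated exons of Fth1 sum to 3469 bases and its shown transcript has 929, but the difference between groups does not.

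Fth1 and Ftl1 together took 2.41%, 3.86% and 3.54% of all counts in wound Eff+ libraries and 2.14%, 2.42% and 3.23% in wound Eff- libraries. The groups overlapped, so the balance of the chains separated the wound groups where their sum did not. The balance rests on the same counts as the Fth1 and Ftl1 levels above, and is not a result independent of them. Single genes were separate between these groups for 36.8% of all genes tested.

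In culture the ferritin chains varied more within the groups than between them. Fth1 had 9231 and 32043 CPM in culture Eff+ libraries and 1501 and 37002 CPM in culture Eff- libraries. Ftl1 had 7955 and 10797 CPM in culture Eff+ and 1702 and 10752 CPM in culture Eff-. The lowest value of each chain was in culture Eff- library 1, and the groups overlapped for both. Fth1 had a log2 fold change of 0.10 in culture (SE 1.69) and Ftl1 one of 0.59 (SE 1.15), both with adjusted p = 1.00, and without culture Eff- library 1 they were -0.81 and -0.16.

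The heavy to light ratio in culture was 0.448 and 1.15 in Eff+ and 0.341 and 1.33 in Eff-. Library 1 of each group was low and library 2 of each group was high, so the groups overlapped. The mean log2 ratio differed by 0.09 between Eff+ and Eff- (exact permutation p = 1.0, two-sided; the smallest possible with 2 against 2 is 0.333). It was -0.89 without culture Eff- library 1 and -0.59 without culture Eff+ library 2, but 0.77 without culture Eff+ library 1 and 1.07 without culture Eff- library 2.

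**Figure D2:**
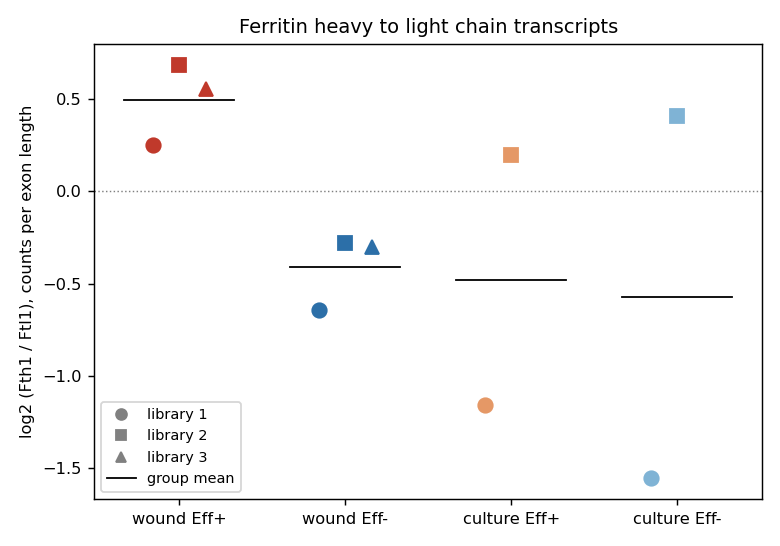
The log2 ratio of Fth1 to Ftl1 counts per exon length in each of the 10 libraries, by group, with the group mean as a bar. The 3 wound Eff+ libraries lie above 0 and the 3 wound Eff- libraries below it, while the culture libraries spread across 0 in both groups.

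Uptake is represented by Tfrc (ENSMUSG00000022797, chromosome 16, 32427738 to 32451612, plus strand), the receptor that brings transferrin-bound iron into cells and the gene with 4 matches to the hairpin pattern in its 3′ UTR. It had 34.2, 52.1 and 50.2 CPM in wound Eff+ libraries and 23.6, 26.6 and 33.4 CPM in wound Eff- libraries. The groups were separate by a narrow margin. Tfrc missed the threshold with a log2 fold change of 0.71 (SE 0.22, adjusted p = 0.0768). DESeq2 gave an adjusted p of 0.0253, and without wound Eff+ library 1 edgeR gave 0.88 with an adjusted p of 0.0422. With the replicate block edgeR gave an adjusted p of 0.0248. Tfrc did not pass with limma-voom (adjusted p = 0.0684) or in edgeR with library totals only (log2 fold change 0.32, adjusted p = 0.32).

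In culture Tfrc had 82.6 and 63.8 CPM in Eff+ libraries and 143 and 33.7 CPM in Eff- libraries. Both Eff+ values lay between the Eff- values. Its log2 fold change was -0.27 (SE 0.75, adjusted p = 1.00), and without culture Eff- library 1, where it was highest, it was 1.16.

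Export is represented by Slc40a1 (ENSMUSG00000025993, chromosome 1, 45947228 to 45965683, minus strand), which encodes ferroportin, the iron exporter of mammalian cells. It had 228, 144 and 113 CPM in wound Eff+ libraries and 60.4, 24.6 and 52.0 CPM in wound Eff- libraries. Every Eff+ library lay well above every Eff- library. Slc40a1 rose 3.54-fold in wound Eff+ cells (log2 fold change 1.83, SE 0.38, adjusted p = 0.0258). The call ended without wound Eff+ library 2 (log2 fold change 1.90, adjusted p = 0.0983), without Eff- library 1 (2.06, 0.0536), Eff- library 2 (1.50, 0.0752) or Eff- library 3 (1.90, 0.0628), and the log2 fold change stayed between 1.49 and 2.06 whichever library was left out.

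In bulk RNA of sorted cells, more cells with Slc40a1 and more Slc40a1 RNA per cell cannot be told apart. Neutrophil markers also separated these groups, at 1.95%, 1.95% and 1.75% of counts in wound Eff+ and 0.472%, 0.292% and 0.503% in wound Eff-, as did the sums of the keratinocyte, dendritic cell and macrophage markers given above. The 10 neutrophil markers had log2 fold changes of 0.96 (Mmp8) to 3.16 (Camp), beside 1.83 for Slc40a1 and 2.71 for Steap4. The part of these marker genes in the Slc40a1 and Steap4 results was not tested. Erythroid markers, among them the globin genes, did not separate the groups, at 0.0129%, 0.0265% and 0.0214% of counts in wound Eff+ and 0.00821%, 0.0431% and 0.0166% in wound Eff-.

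Slc40a1 had 750.2 and 573 CPM in culture Eff+ libraries and 263 and 345 CPM in culture Eff- libraries. Both Eff+ libraries lay above both Eff- libraries, as in the wound. Its log2 fold change in culture was 1.12 (SE 0.53, adjusted p = 1.00), which did not pass the test, and without culture Eff- library 1 it was 0.97. Ferroportin RNA was separate between Eff+ and Eff- libraries in both models, with the culture values above the wound values in each case, though CPM were scaled within each model.

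Slc11a1 (ENSMUSG00000026177, chromosome 1, 74414354 to 74425221, plus strand) encodes NRAMP1, which moves divalent metal ions out of the phagosome of macrophages and neutrophils. It had 620, 892 and 712 CPM in wound Eff+ libraries and 432, 438 and 549 CPM in wound Eff- libraries. The groups did not overlap. The log2 fold change of Slc11a1 was 0.65 (SE 0.20, adjusted p = 0.0776), short of the threshold. DESeq2 gave an adjusted p of 0.0136, and edgeR with the replicate block 0.0454. It did not pass with limma-voom (adjusted p = 0.0584) or in edgeR with library totals only (log2 fold change 0.25, adjusted p = 0.34).

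In culture Slc11a1 had 327 and 409 CPM in Eff+ libraries and 68.5 and 375 CPM in Eff- libraries. Culture Eff- library 1 was the low one, and Eff- library 2 lay between the Eff+ libraries. The log2 fold change was 0.73 (SE 0.88, adjusted p = 1.00), and 0.006 without culture Eff- library 1.

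Haem breakdown is represented by Hmox1 (ENSMUSG00000005413, chromosome 8, 75820249 to 75827217, plus strand), the inducible haem oxygenase. It had 467, 912 and 1486 CPM in wound Eff+ libraries and 840.2, 823 and 2115 CPM in wound Eff- libraries. The groups overlapped, and library 3 was the highest of each. Hmox1 had a log2 fold change of -0.40 (SE 0.50, adjusted p = 0.635), which turned to 0.18 without wound Eff- library 3.

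In culture Hmox1 had 977 and 813 CPM in Eff+ libraries and 131 and 516 CPM in Eff- libraries. Both Eff+ libraries lay above both Eff- libraries. Its log2 fold change was 1.47 (SE 0.81, adjusted p = 1.00), which did not pass the test, and 0.83 without culture Eff- library 1.

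The metalloreductases reduce ferric iron so that transporters can carry it. Steap4 (ENSMUSG00000012428, chromosome 5, 8010457 to 8032213, plus strand), known to be induced by inflammatory signals in mouse tissues, had 635, 682 and 428 CPM in wound Eff+ libraries and 105, 61.9 and 98.7 CPM in wound Eff- libraries. The lowest Eff+ library lay far above the highest Eff- library. Steap4 rose 6.56-fold in wound Eff+ cells (log2 fold change 2.71, SE 0.28, adjusted p = 0.0097), the largest change of the 10 genes there. The call ended without wound Eff+ library 2 (log2 fold change 2.58, adjusted p = 0.0576) and held without any other single library.

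In culture Steap4 was nearly absent. It had 4 and 0 counts in Eff+ libraries, 0.154 and 0 CPM, and 11 and 0 counts in Eff- libraries, 0.494 and 0 CPM. A count of 0 allows up to 0.125 CPM in culture Eff+ library 2 and 0.156 CPM in culture Eff- library 2, counting error only. It was too low to be tested in culture, whereas the wound libraries had 3254 to 31808 counts. It was the only one of the 10 genes measured in the wound that did not pass the low-count filter in culture.

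Steap3 (ENSMUSG00000026389, chromosome 1, 120118487 to 120200435, minus strand), the ferrireductase of transferrin endosomes in mouse erythroid precursors, had the opposite order in the wound. It had 7.44, 12.5 and 18.9 CPM in wound Eff+ libraries and 28.3, 19.3 and 21.3 CPM in wound Eff- libraries. The groups were separate by a small gap. The log2 fold change of Steap3 was -0.83 (SE 0.34, adjusted p = 0.151), and it passed only with scaling by library totals (-1.21, adjusted p = 0.0442).

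In culture Steap3 had 48.2 and 49.0 CPM in Eff+ libraries and 9.20 and 38.5 CPM in Eff- libraries. Both Eff+ libraries lay above both Eff- libraries, the opposite order to the wound. Its log2 fold change was 1.03 (SE 0.73, adjusted p = 1.00), and 0.37 without culture Eff- library 1.

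Cp (ENSMUSG00000003617, chromosome 3, 20011218 to 20063309, plus strand) encodes ceruloplasmin, the copper ferroxidase that loads exported iron onto transferrin. It had 1.42, 7.84 and 7.19 CPM in wound Eff+ libraries and 2.34, 7.92 and 7.76 CPM in wound Eff- libraries. Library 1 was low in both groups, and the groups overlapped, with a log2 fold change of -0.13 (SE 0.67, adjusted p = 0.922). In culture it had 3.50 and 3.78 CPM in Eff+ libraries and 3.95 and 3.17 CPM in Eff- libraries, a log2 fold change of 0.03 (SE 0.62, adjusted p = 1.00), and 0.23 without culture Eff- library 1. Cp had only 61 to 416 counts a library and shares 108 exon bases with Hps3 on the other strand, which had 716 to 1821, and without strand the reads of the shared bases cannot be told apart.

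Hfe (ENSMUSG00000006611, chromosome 13, 23886017 to 23894837, minus strand) encodes the membrane protein that binds transferrin receptor 1 and takes part in hepcidin control. It had 98.4, 60.6 and 50.6 CPM in wound Eff+ libraries and 152, 142 and 81.9 CPM in wound Eff- libraries. The groups overlapped through the highest Eff+ and the lowest Eff- library. The log2 fold change of Hfe was -0.84 (SE 0.32, adjusted p = 0.121), and with scaling by library totals it passed (-1.24, adjusted p = 0.0328). It passed in edgeR with the replicate block too (adjusted p = 0.0149), but not with DESeq2 (0.0629) or limma-voom (0.0976). In culture Hfe had 14.4 and 68.9 CPM in Eff+ libraries and 25.0 and 119 CPM in Eff- libraries, with a log2 fold change of -0.79 (SE 1.04, adjusted p = 1.00), and -1.49 without culture Eff- library 1.

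**Figure D3:**
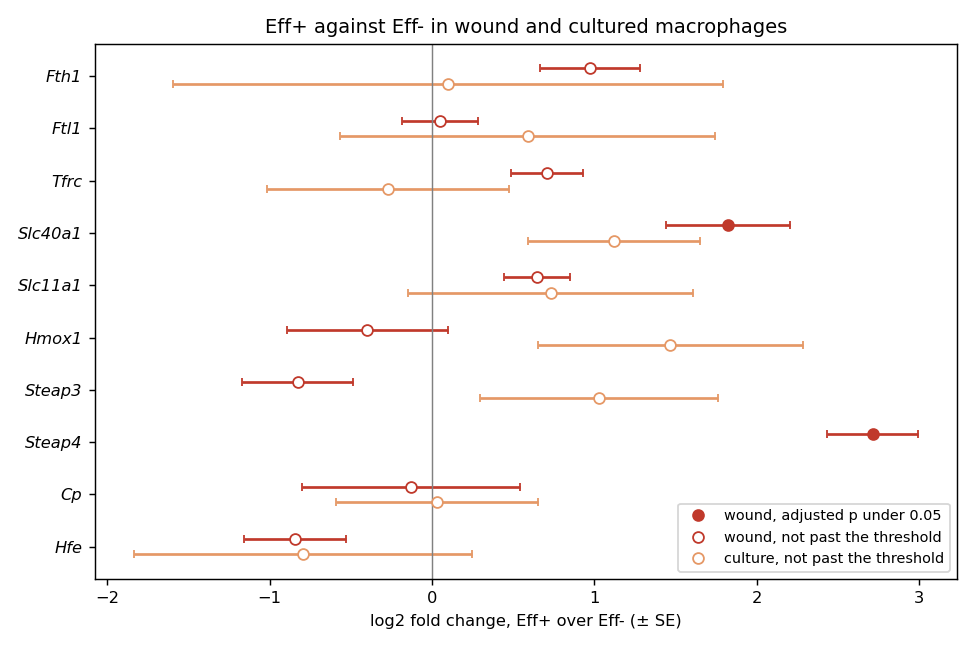
Log2 fold changes, Eff+ over Eff-, with 1 SE to each side, for the 10 iron genes in wound (3 against 3 libraries) and culture (2 against 2); filled points passed an adjusted p of 0.05. Slc40a1 at 1.83 and Steap4 at 2.71 are the only filled points, the culture bars are wider for every gene but Cp, and Steap4 has no culture point because it was too low to test.

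In culture, 0 of the 9 iron genes tested passed edgeR's test, and 0 of the 14867 genes tested did (0.00%). At an unadjusted p under 0.05 there were 0 of the 9 and 115 of all genes, and DESeq2 called 0 of the 9 and 2 of all genes (0.0135%). The ranges did not overlap for 3 of the 9, Slc40a1, Hmox1 and Steap3, all higher in Eff+, against 20.7% of all genes tested. The median log2 fold change of the 9 was 0.59, beside -0.054 over all genes tested.

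Whether the Eff+ to Eff- difference itself differed between wound and culture was tested as an interaction in all 10 libraries, given as wound minus culture. It passed for 0 of the 10 iron genes and 0 of 20270 genes (0.00%) with edgeR, with 2 of the 10 and 2222 of all genes at an unadjusted p under 0.05, and DESeq2 called 1 of the 10 and 797 of all genes (5.87%). The gene DESeq2 called was Steap4, with a log2 difference of 4.37 in edgeR (SE 1.36, adjusted p = 0.297), which rests on 4 counts in culture Eff+ and 11 in culture Eff- and was -1.56 without culture Eff- library 1. Steap3 had a log2 difference of -1.84 (SE 0.76, adjusted p = 0.412) and Hmox1 one of -1.85 (SE 0.93, adjusted p = 0.494). Slc40a1, higher in Eff+ in both models, had a log2 difference of 0.73 (SE 0.62, adjusted p = 0.694), a difference not detectable with these libraries. Without culture Eff- library 2, which leaves culture Eff- library 1 alone in its group and assumes that it varies like the other groups, 7 of the 10 iron genes and 2009 of all genes (8.50%) passed.

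Set in order per kilobase of summed annotated exon, ferritin far exceeded the rest in every group. The order of genes with near values depends on the length used. The summed exons and the shown transcript have 3469 and 929 bases for Fth1, 1340 and 968 for Ftl1, and 9000 and 3370 for Slc40a1. In wound Eff+ cells the mean level was 8567 ± 2562 CPM per kilobase for Fth1 and 5929 ± 941 for Ftl1 (SD, n = 3), neighbours whose ranges overlapped. Hmox1 followed at 545 ± 292, then Slc11a1 at 200.1 ± 37.3 and Steap4 at 184 ± 42.7, which were not separate from each other. Hfe at 19.6 ± 7.06 and Slc40a1 at 18.0 ± 6.63 were not separate either, and Tfrc at 7.36 ± 1.59, Steap3 at 2.26 ± 1.00 and Cp at 0.574 ± 0.369 CPM per kilobase closed the order, each clear of the next.

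In wound Eff- cells Ftl1 came first on this scale, at 5726 ± 1200 CPM per kilobase, and Fth1 after it at 4365 ± 1240, with ranges that overlapped. Which chain comes first rests on the summed exon lengths. Steap4 stood at 28.1 ± 7.41 there, below Hfe at 35.1 ± 10.6 and not separate from it, whereas in wound Eff+ cells it stood beside Slc11a1. Slc40a1 at 5.07 ± 2.08, Tfrc at 4.50 ± 0.812 and Steap3 at 4.02 ± 0.831 CPM per kilobase were not separate from one another (SD, n = 3).

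In culture the order held Slc40a1 higher and Steap4 last. Slc40a1 was at 73.5 ± 13.9 CPM per kilobase in culture Eff+, below Slc11a1 at 99.2 ± 15.7 and above Tfrc at 11.8 ± 2.15, and clear of both. It was at 33.8 ± 6.44 in culture Eff- (SD, n = 2), where it was not clear of its neighbours. Steap4 closed both orders, at 0.0244 in culture Eff+ and 0.0782 CPM per kilobase in culture Eff-.

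Beyond the 10 genes, 50 further genes of iron and haem handling were listed, of which 39 could be tested in the wound. In Eff+ cells 7 of them rose and 3 fell, against 7.39% and 3.79% of all genes tested, and their median log2 fold change was -0.187, beside -0.027 over all genes tested. With scaling by library totals only, 7 rose and 13 fell. In culture 0 of 39 passed, with 0 at an unadjusted p under 0.05, and their median was 0.061; without culture Eff- library 1, 0 of 38 passed and the median was -0.213. Each of the 10 calls in the wound ended without wound Eff+ library 2 (adjusted p 0.0683 to 0.181) and without wound Eff- library 2 (0.066 to 0.139). Leaving out wound Eff- library 1 ended 7 of them (0.0549 to 0.103), Eff+ library 3 ended 5 (0.0511 to 0.0915), Eff- library 3 ended 4 (0.052 to 0.114) and Eff+ library 1 ended 2 (0.0725 to 0.0767).

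Of the iron regulatory proteins and their control, 1 of 3 rose. Fbxl5, the iron-sensing part of the ubiquitin ligase that degrades IRP2, had 2058, 1979 and 1508 CPM in wound Eff+ libraries and 643, 471 and 875 CPM in wound Eff- libraries. It rose 2.79-fold (log2 fold change 1.48, SE 0.27, adjusted p = 0.0177), with no overlap. Aco1, which encodes IRP1, had a log2 fold change of -0.74 (SE 0.20, adjusted p = 0.0530) with separate groups, and Ireb2, which encodes IRP2, one of -0.12 (adjusted p = 0.764).

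Of the 10 haem and haemoglobin handling genes tested, 1 rose and 3 fell, where 7.39% of all genes rose and 3.79% fell, and their median log2 fold change was -0.878, beside -0.027 over all genes. Of the 8 macrophage markers, Adgre1, Csf1r, Cd68, Fcgr1 and Mertk lay lower in the same libraries, and only Adgre1 of these passed the test. Cd14 and Ptprc lay higher and passed, and Itgam overlapped. The part of these markers in the haem and haemoglobin values was not tested. Cd163, the macrophage receptor for haptoglobin-bound haemoglobin, fell in Eff+ cells, with 21.6, 17.5 and 20.9 CPM in wound Eff+ libraries and 34.0, 38.7 and 54.5 CPM in wound Eff- libraries (log2 fold change -1.08, SE 0.22, adjusted p = 0.0240). Lrp1, which takes up haem bound to haemopexin among many other cargoes, fell (-0.97, SE 0.26, adjusted p = 0.0494), and so did Blvra, a biliverdin reductase that acts after haem oxygenase (-0.93, SE 0.20, adjusted p = 0.0269). The gene that rose was Hp, haptoglobin itself, with 1855, 1555 and 1118 CPM in wound Eff+ libraries and 709, 428 and 487 CPM in wound Eff- libraries (log2 fold change 1.48, SE 0.27, adjusted p = 0.0192).

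The call of Lrp1 also ended with RLE scaling (adjusted p = 0.0542) and upper quartile scaling (0.0558). Hp is stored in neutrophil granules as well as made by macrophages, and its rise stands beside neutrophil markers at 1.75% to 1.95% of counts in wound Eff+ and 0.292% to 0.503% in wound Eff-, whose part was not tested. Slc48a1, which carries haem out of the phagolysosome in mouse macrophages, had 45.1, 64.2 and 108 CPM in wound Eff+ libraries and 103, 102 and 192 CPM in wound Eff- libraries (log2 fold change -0.87, SE 0.37, adjusted p = 0.161), with groups that overlapped. Blvrb, the other biliverdin reductase, had a log2 fold change of -0.88 (SE 0.24, adjusted p = 0.0554) with separate groups. Flvcr2 had 34, 18 and 20 counts in wound Eff+ and 0, 0 and 2 counts in wound Eff- (adjusted p = 0.0577), too few for a fold change.

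Of the 9 haem synthesis genes, 2 rose, where 7.39% of all genes did, and 7 had negative log2 fold changes that did not pass, as 7645 of all 14908 genes had a negative one. Alas1, the first and rate-limiting enzyme of haem synthesis outside red cell precursors, had 540.2, 776 and 563 CPM in wound Eff+ libraries and 276, 259 and 289.6 CPM in wound Eff- libraries. It rose 2.28-fold (log2 fold change 1.19, SE 0.19, adjusted p = 0.0134), with no overlap. Ppox, a late enzyme of the same path, rose by a log2 fold change of 0.76 (SE 0.18, adjusted p = 0.0372), a call that ended when counts were scaled by library totals only (adjusted p = 0.185).

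Of the 4 transcription factors listed, Nfe2l2 rose and the other 3 did not pass. Nfe2l2 encodes NRF2, known to drive Hmox1 and both ferritin chains, and had 1091, 1132 and 971 CPM in wound Eff+ libraries and 538, 491 and 547 CPM in wound Eff- libraries (log2 fold change 1.02, SE 0.17, adjusted p = 0.0132). Bach1, the haem-sensing repressor of the same genes, had a log2 fold change of 0.14 (SE 0.18, adjusted p = 0.644). Both iron-binding proteins of neutrophil granules rose: Lcn2, which binds bacterial siderophores, had 147, 492 and 325 CPM in wound Eff+ libraries and 33.2, 50.5 and 82.2 CPM in wound Eff- libraries (log2 fold change 2.54, SE 0.49, adjusted p = 0.0214), and Ltf, lactoferrin, had a log2 fold change of 2.40 (SE 0.45, adjusted p = 0.0198). The neutrophil marker sums given above separated the same groups, and their part in these changes was not tested.

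The lists for storage, uptake and the hepcidin axis gave no call. Ncoa4, the receptor that takes ferritin to the lysosome, had a log2 fold change of 0.29 (SE 0.20, adjusted p = 0.375), and Trf, transferrin, one of 0.33 (SE 0.29, adjusted p = 0.478). Slc11a2, the divalent metal transporter of endosomes, was separate between groups at -1.13 (SE 0.32, adjusted p = 0.0609), and so was Slc25a37, a mitochondrial iron importer, at 0.88 (SE 0.29, adjusted p = 0.0889). None of the 7 genes of the export and hepcidin list reached the low-count filter in the wound: Hamp, hepcidin itself, had 0, 0 and 2 counts in wound Eff+ and 0 in each wound Eff- library.

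**Figure D4:**
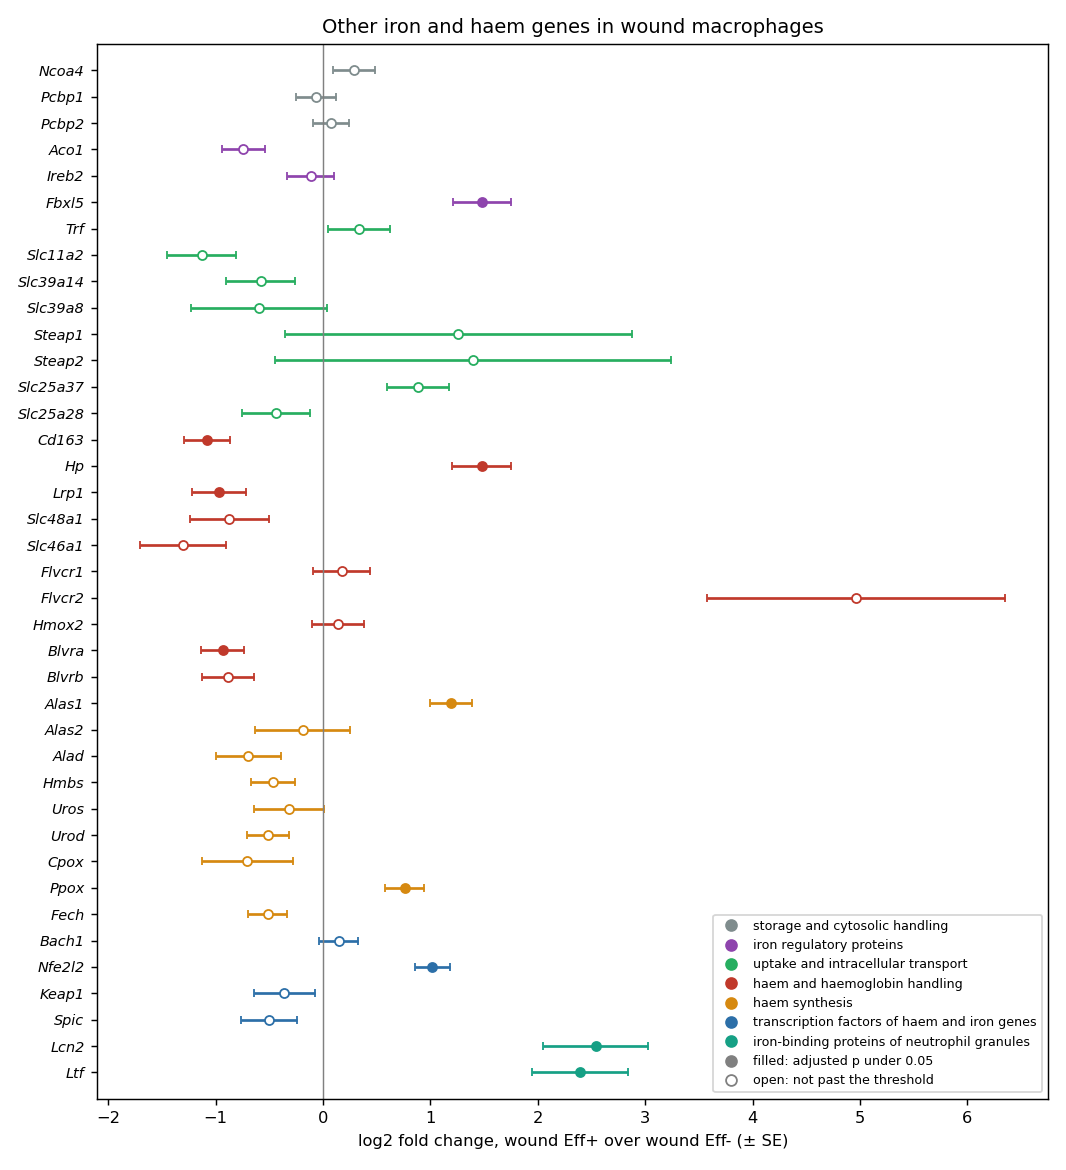
Log2 fold changes, wound Eff+ over wound Eff- (3 against 3 libraries), with 1 SE to each side, for the 39 further iron and haem genes tested, coloured by list; filled points passed an adjusted p of 0.05. The 10 filled points are 7 to the right of 0 and 3, all haem and haemoglobin handling genes, to the left, and Flvcr2, the farthest point, rests on 2 counts in the wound Eff- libraries.

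The genes most like each member were taken as those with the highest Pearson correlation over the 10 libraries, on log2(CPM + 1) with the mean of each model subtracted. The search covered the 7722 named genes with a mean of at least 5 CPM in both wound and culture, predicted and RIKEN genes left out. The correlations are descriptions over 10 libraries that are not independent of the groups, and culture Eff- library 1, which stood apart, enters each of them. Fth1 was closest to the copper transporter Slc31a2 (r = 0.99), with the proton pump subunits Atp6v1e1 and Atp6v0c at 0.99 each. Ftl1 was closest to its own copy Ftl1-ps1 (r = 1.00), which may hold Ftl1 reads, then to the lysosomal protease Ctsd and to Chmp3 (0.99 each).

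Slc11a1 was closest to Mien1 (r = 0.99), and then to Alas1 and another proton pump subunit, Atp6v0e (0.98 each). Hmox1 was closest to Galnt6 (0.99), Lgals3 and Akr1b8 (0.97 each). Slc40a1 had no partner above 0.95, the value of Nsrp1, Isca1 and Cd300lf. Steap4, whose pattern comes from the wound libraries alone, was closest to Inpp1, Ankrd33b and Tut7 (0.99 each). Genes nearly absent from culture, as Steap4 is, were outside the search, among them the neutrophil markers S100a9, Retnlg and Cxcr2.

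Tfrc was closest to Zc3h7a and Mdm4 (0.98 each) and Mapk8 (0.97), and Hfe to the lysosomal mannosidase Man2b1 (0.98), Arhgef6 and Slamf9 (0.96 each). Steap3 was closest to B3glct (0.98), Sept8 and Vat1 (0.97 each). Cp, with the fewest counts, had the weakest partners, Abcc1 and Heatr5b at 0.92 and Kdm4b at 0.90.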

How the data were processed

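The authors deposited raw read counts per gene, 1 column per library. Wound counts were made with featureCounts 1.6.0 at its default settings, with no strand option, on the Ensembl release 106 annotation of GRCm39, per the file headers. Trimmomatic 0.39 is named in the submitters' processing notes. Which aligner was used, and how culture reads were counted, was not given in the sources used here. A further 4 columns carry no sample's name and stayed out. GENCODE vM21 named 52081 of the 55414 identifiers, which hold 99.91% of counts. The iron genes and lists were chosen with earlier results of these data known.

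Counts were tested in R 4.3.3 with edgeR 4.0.16 (TMM scaling, filterByExpr, quasi-likelihood test, Benjamini-Hochberg adjustment over all genes tested, threshold 0.05), within wound, within culture, and as an interaction over all 10 libraries, without a replicate block. A fold change's SE is its size over the square root of F. CPM use TMM-scaled totals within each model, and levels per kilobase use summed exon length. The ferritin ratio was compared by exact permutation. A count of 0 allows up to 3 counts, which covers counting error only. Replicates differed by far more than sampling noise (chi-square per degree of freedom 78.9 to 460), and none was merged. The procedure was also run on simulated data with known changes, and how many of them it recovered is not reported here. Of each list, up to 4 called genes in each direction by size of fold change were named, with Slc48a1, Cd163, Blvrb, Ncoa4, Aco1, Ireb2, Bach1, Nfe2l2, Lcn2 and Trf always. Slc11a2, Slc25a37, Flvcr2 and Hamp were named after their values were seen. Hjv was matched through its older symbol. Alternatives were RLE, upper quartile and library-total scaling, DESeq2 1.42.0, limma-voom (limma 3.58.1), no low-count filter, a replicate block, marker genes left out, ferritin copies added, and each library left out.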

Additional observations from a re-analysis of the deposited data

Results flagged for a closer look

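Steap3 was picked out because its groups separated in opposite directions in the models. Ranges were separate for 36.8% of all genes tested in the wound and 20.7% in culture. How many genes separated in opposite directions was not counted. Its 3 wound Eff+ libraries (7.44 to 18.9 CPM) lay below its 3 wound Eff- libraries (19.3 to 28.3 CPM), and its 2 culture Eff+ libraries (48.2 and 49.0 CPM) lay above its 2 culture Eff- libraries (9.20 and 38.5 CPM). The interaction, wound minus culture, was -1.84 on the log2 scale (SE 0.76), with an unadjusted p of 0.0344 and an adjusted p of 0.412 in edgeR's quasi-likelihood test, which did not pass. Without culture Eff- library 2, which leaves library 1, the one that stood apart, alone in its group, the interaction was -3.27. Without culture Eff- library 1, which leaves library 2 alone, it was -1.18.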

How the results depend on the processing

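Slc40a1 and Steap4 kept their direction in the wound under every alternative run, with log2 fold changes of 1.45 to 2.06 and 2.32 to 2.89; their calls ended only when libraries were left out. Of the 10 iron genes, 2 passed in the wound, against 4 with library totals only, 5 with DESeq2, 6 with the replicate block, 0 without both libraries numbered 2, and 0 to 3 with 1 library left out. Over all genes the wound count was 1666, against 3368 (714 higher, 2654 lower) with library totals only, 3150 with DESeq2, 2985 with the replicate block, 0 without both libraries numbered 2, and 0 to 1347 with 1 library left out, the 0 being without wound Eff+ library 2. In culture, where 0 passed, DESeq2 and no filter gave 2 each, the replicate block 48, and 1 library left out 0 to 27. For the difference between models, where 0 passed, DESeq2 and no filter each gave 1 iron gene, and 797 and 517 of all genes, the replicate block 441, and 1 library left out 0 to 7 iron genes and 0 to 2009 of all genes. The cause of these changes was not tested.

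Some log2 values that had no call in the main fit changed sign. In the wound these were, with library totals only, Ftl1 (-0.34), Ncoa4 (-0.10), Bach1 (-0.26) and Trf (-0.065), and without both libraries numbered 2, Ftl1 (-0.17). In culture these were Tfrc (voom 0.071, no filter 0.163, replicate block 0.064), Cd163 (voom 1.10, block 0.87), Cp and Ireb2 (RLE -0.033 and -0.022, upper quartile -0.051 and -0.039, totals -0.131 and -0.117, DESeq2 -0.034 and -0.022). For the difference between models these were Fth1 (voom -0.21, block -0.23), Slc11a1 (RLE and DESeq2 0.014), Cp (0.006 in both), Hfe (0.056 in both, upper quartile 0.038) and Ireb2 (0.000 in both). With 1 library left out, the ranges that crossed 0 in the wound were -0.083 to 0.21 for Ftl1, -0.869 to 0.182 for Hmox1, -0.53 to 0.325 for Cp and -0.296 to 0.052 for Ireb2. In culture they were -1.075 to 4.082 for Fth1, -0.164 to 2.756 for Ftl1, -0.673 to 1.155 for Tfrc, -2.303 to 1.04 for Hfe, -1.469 to 4.088 for Cd163, -0.575 to 2.004 for Blvrb, -0.009 to 1.774 for Ncoa4, -0.253 to 1.154 for Aco1, -0.479 to 0.339 for Bach1, -1.079 to 1.249 for Nfe2l2, -0.872 to 1.177 for Trf and -0.891 to 1.073 for the ferritin ratio. For the difference they were -2.839 to 2.037 for Fth1, -2.446 to 0.24 for Ftl1, -0.425 to 1.634 for Tfrc, -1.81 to 0.667 for Slc11a1, -1.557 to 8.609 for Steap4, -0.532 to 0.304 for Cp, -1.604 to 1.486 for Hfe, -4.9 to 0.375 for Cd163, -1.227 to 0.322 for Ncoa4, -0.337 to 0.047 for Ireb2 and -0.57 to 1.247 for Trf. In culture a library left out leaves a lone one, assumed to vary like the other group.

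No label pairs the replicate numbers. Same-numbered wound libraries deviated together with r of 0.476, 0.0341 and 0.281, and Eff+ library 2 correlated best with Eff- library 3 (0.178), so the numbers were not taken as pairs. In culture, with 2 libraries in each group, both same-numbered pairs must give the same r, which was 0.743. The culture fit took no pairs either, as no label gives them. The replicate block gave 2985 calls in the wound, against 1666 without it, and added Fth1, Tfrc, Slc11a1 and Hfe (-0.85, adjusted p = 0.0149) to the iron genes called. Culture depth, and the 4 counts of Steap4 in culture Eff+ and 11 in culture Eff-, limit the comparison of models.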
